A study of Homo sapiens with 2 samples.

Results

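The peaks of exogenous Cdx1 and Cdx2 around *KRT20*, *VIL1*, *LGALS4* and *GUCY2C*, 4 genes that mark differentiated enterocytes, are described here. The members were all peaks with their summit in a fixed window around each gene, covering the gene and about 20 kb on each side. The windows lay at 39012000 to 39062000 of chromosome 17 for *KRT20*, 219263000 to 219335000 of chromosome 2 for *VIL1*, 39272000 to 39324000 of chromosome 19 for *LGALS4*, and 14745000 to 14870000 of chromosome 12 for *GUCY2C*. These positions are in GRCh37, the build named in the submitters' processing notes. In all, 53 of 415628 peaks lay in these windows, 26 of the 196910 called with FLAG-wt-Cdx1 and 27 of the 218718 called with FLAG-wt-Cdx2 (hereafter, wt-Cdx1 and wt-Cdx2).

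The human colon cancer cells used, DLD1-TetOff, carry a transactivator held off by doxycycline (DOX). Clones of these cells, each grown from a single cell, carried FLAG-tagged mouse wt-Cdx1 or wt-Cdx2, which was turned on by taking DOX (0.5 µg/mL) out of the medium. The ChIP-seq data comprised 1 library per factor, each from 10 pooled dishes fixed 20 h after DOX was withdrawn and cut with MNase. The description of each library mentions cells with DOX that do not express the tagged protein, whereas the protocols describe withdrawal of DOX, so that both libraries are taken here as induced. No library of input DNA or of cells without a tagged protein was analyzed here, so that binding of the factor and recovery of the region irrespective of it cannot be told apart at any peak below. Since each factor had only 1 library, the factors were not tested against each other, and all intervals cover counting error only.

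CDX1 and CDX2 are homeodomain transcription factors of the intestinal epithelium that bind AT-rich DNA, typically around the core TTTAT. CDX2 is known to bind promoters and distant enhancers of genes that are turned on as epithelial cells leave the crypt and differentiate. The genes described here encode different parts of the differentiated cell, namely a keratin of the cytoskeleton (*KRT20*), an actin-bundling protein of the microvilli (*VIL1*), a carbohydrate-binding lectin (*LGALS4*), and an apical receptor that makes cyclic GMP (*GUCY2C*).

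wt-Cdx1 and wt-Cdx2 summits were called at all 4 genes, but 88.3% to 94.6% of genome windows of these lengths also held at least 1 summit. Both factors had a summit at the same place for 5 of the 26 wt-Cdx1 members, against 29.2% of all wt-Cdx1 peaks, and for 5 of the 27 wt-Cdx2 members, against 26.3%. The highest peaks were a wt-Cdx1 peak at the 3′ side of *LGALS4* and a wt-Cdx2 peak past the 3′ end of *GUCY2C*, each of which stood above 99.4% of the peaks of its list. At these places, the other factor also had a peak, but with fewer fragments. With the gene starts as placed here, a wt-Cdx2 summit at *VIL1* was the only one within 1 kb of a start, but this depends on the placement. For a start 1000 bp further downstream, the *VIL1* summit fell outside this distance and a wt-Cdx2 summit of *LGALS4* within it, and for a start 1000 bp further upstream, a wt-Cdx1 summit of *GUCY2C* fell within it.

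In the following, pileup means how many fragments covered the summit of a peak, as given by the authors and not scaled to depth. Fold enrichment is the pileup divided by the local background, after adding 1 to each. The transcription start site (TSS) was placed 20 kb inside the 5′ edge of each window, since no annotation of GRCh37 was used here. Distances therefore hold to about 1 kb, and they run along the strand of the gene.

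**Figure D1:**
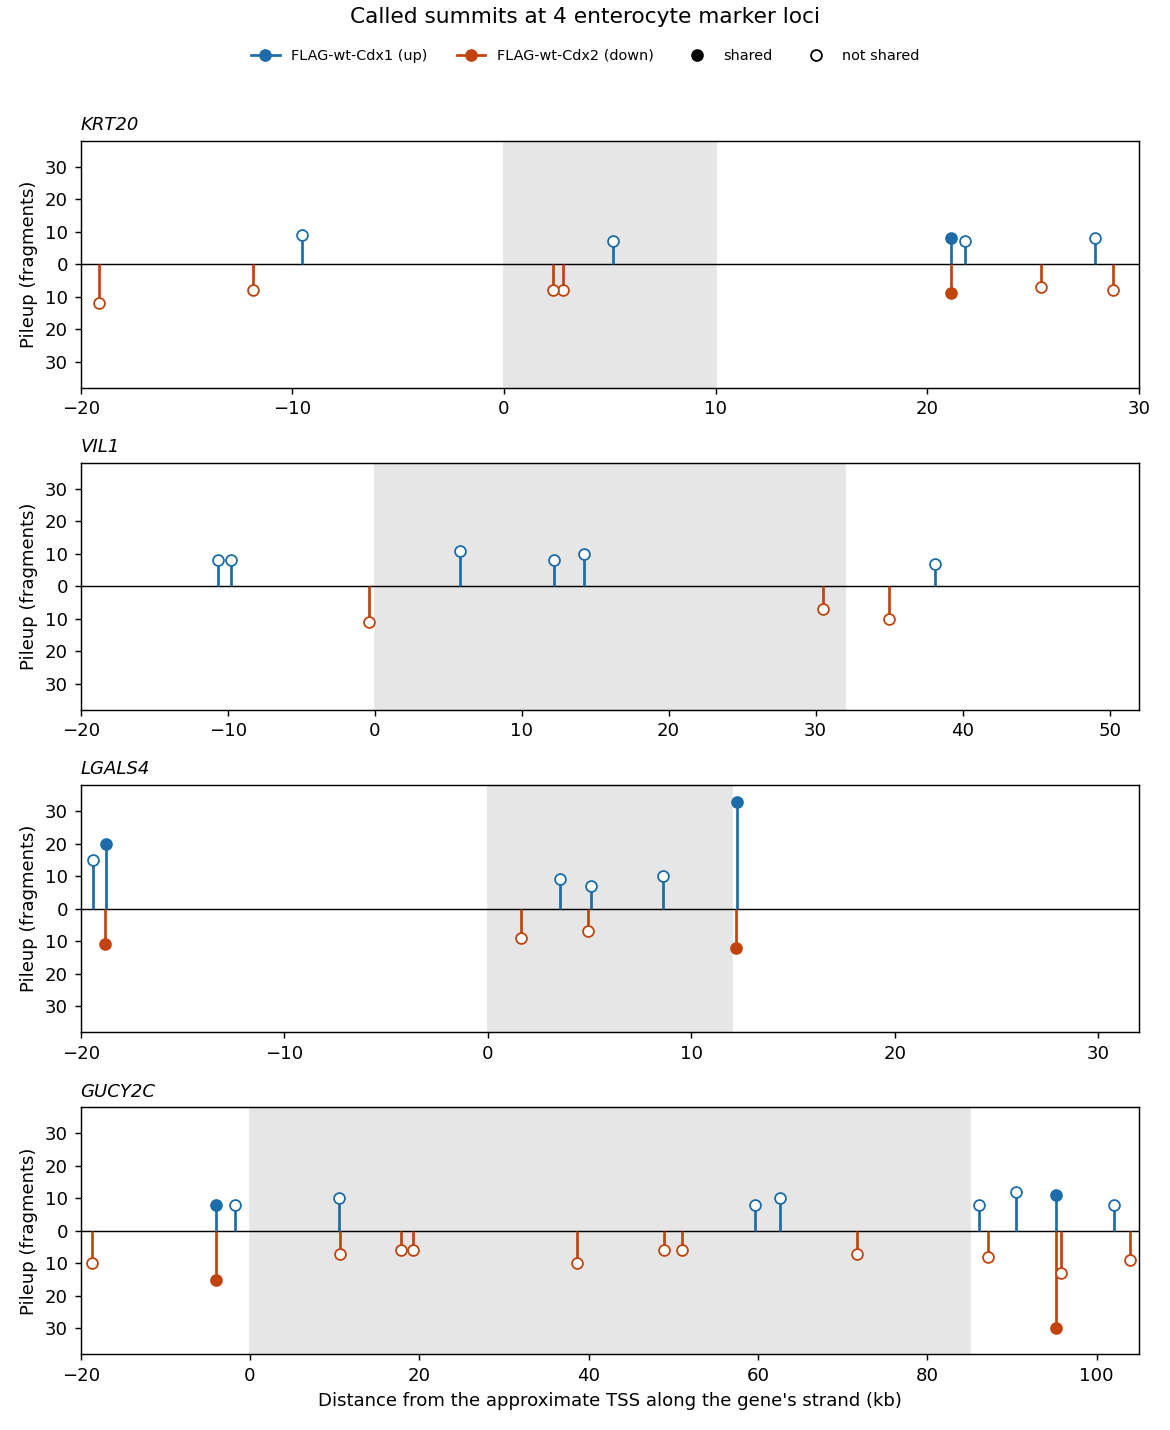
Called summits at *KRT20*, *VIL1*, *LGALS4* and *GUCY2C*. The horizontal axis is the distance from the approximate TSS along the strand of the gene in kb, the gray area is the approximate gene body, and each stem is a summit with its pileup in fragments, upward for wt-Cdx1 and downward for wt-Cdx2. Filled points are shared summits, which lay within 100 bp of a summit of the other library, and the tallest stems, 33 and 30 fragments, lie downstream of *LGALS4* and *GUCY2C*.

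*KRT20* encodes keratin 20, an intermediate filament protein of the mature intestinal epithelium. Its window held 5 wt-Cdx1 summits with pileups of 7 to 9 fragments and 7 wt-Cdx2 summits with pileups of 7 to 12. The highest wt-Cdx1 peak, at position 39051549 and 9549 bp upstream of the TSS, had a pileup of 9 fragments (95% exact Poisson interval, 4.12 to 17.1) and stood above 31.9% of its list, less than the highest wt-Cdx1 peak of any other gene here. Peaks of equal pileup are not counted in such percentages. Its pileup equaled the median of the list, and 49.9% of the list was higher. The highest wt-Cdx2 peak, at 39061118 and 19118 bp upstream, had 12 fragments (6.20 to 21.0) and stood above 86.1% of its list. This summit lay within 1 kb of the edge of the window, and its local background was 2.39 times the genome-wide value of the library. In the order of RefSeq genes, the neighbor of *KRT20* on this upstream side is *KRT23*, and the peak was not assigned to either gene.

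Within the *KRT20* gene, 1 wt-Cdx1 summit and 2 wt-Cdx2 summits were called. The wt-Cdx1 summit lay 5163 bp downstream of the TSS with a pileup of 7 fragments. The wt-Cdx2 summits lay closer, 2330 and 2793 bp downstream of the TSS, with 8 fragments each. The only shared site of the locus was on the far side of the gene, at 39020894 with wt-Cdx1 and 39020860 with wt-Cdx2, 34 bp apart and about 21 kb from the TSS. Its pileup was 8 fragments with wt-Cdx1 and 9 with wt-Cdx2.

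Neither library had a summit in the *KRT20* promoter. The 250 bases in front of the annotated start are shown because this promoter, without a called peak, contains the letters of the CDX core. The sequence was taken from RefSeq, chr17:40885243-40885492 of GRCh38.p14 on the minus strand, and capitals mark TTTAT and its reverse complement ATAAA.
KRT20: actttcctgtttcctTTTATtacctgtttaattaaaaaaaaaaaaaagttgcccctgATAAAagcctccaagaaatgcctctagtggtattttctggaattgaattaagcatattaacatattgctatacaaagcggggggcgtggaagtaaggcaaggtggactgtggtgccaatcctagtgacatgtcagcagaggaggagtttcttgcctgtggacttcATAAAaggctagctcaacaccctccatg
There were 3 matches, starting 235, 193 and 28 bases before the TSS. The last of these reads CATAAA, the reverse complement of the longer form TTTATG, and lies where a TATA box is usually found, whose letters TATAAA also contain ATAAA. Among 35116 RefSeq promoters of the same length, 32.7% held TTTAT on either strand, 9.64% held TTTATG, and 16.0% held TTTATT, which the *KRT20* promoter also contains. The matches describe the sequence only.

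*VIL1* encodes villin, which bundles actin filaments in the microvilli of the brush border. Its window held 6 wt-Cdx1 summits with pileups of 7 to 11 fragments and 3 wt-Cdx2 summits with pileups of 7, 10 and 11. No summit was shared, and no peak of either library overlapped a peak of the other. Over the whole lists, 34.2% of wt-Cdx1 peaks and 30.8% of wt-Cdx2 peaks overlapped a peak of the other library. The closest pair of summits between the libraries was 3134 bp apart.

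The wt-Cdx2 peak with the highest pileup at *VIL1* was also the one nearest to the TSS. Its summit, at 219282647, lay 353 bp upstream of the approximate TSS, which is less than the uncertainty of the TSS, so that its side cannot be told. At this summit, 11 fragments were piled up (5.49 to 19.7) with a fold enrichment of 5.40, and the peak stood above 80.5% of the wt-Cdx2 list. With the TSS as placed here, wt-Cdx1 had no summit within 5 kb of it. For a TSS 1000 bp further downstream, the nearest wt-Cdx1 summit lay 4822 bp away. The nearest and highest wt-Cdx1 peak was inside the gene, 5822 bp downstream of the TSS at 219288822. It also had 11 fragments, with a fold enrichment of 6.67, and stood above 63.4% of its list. A further wt-Cdx1 summit in the gene, 14269 bp downstream of the TSS, had 10 fragments. The local background of the wt-Cdx1 peaks was at most 1.05 times the genome-wide value, the lowest upper end of the loci.

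*LGALS4* encodes galectin-4, a lectin of the intestinal epithelium that binds glycans and takes part in apical transport. Its window held 6 wt-Cdx1 summits with pileups of 33, 20, 15, 10, 9 and 7 fragments and 4 wt-Cdx2 summits with pileups of 12, 11, 9 and 7. The wt-Cdx1 peaks were thus the higher ones at this locus.

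The wt-Cdx1 peak with 33 fragments (22.7 to 46.3) spanned positions 39291451 to 39292017, with its summit at 39291764. It was 567 bp long, the longest peak of all loci, and lay 12236 bp downstream of the TSS, within 1 kb of the 3′ end of the gene as placed here. Its −log10 q was 22.6, and it stood above 99.4% of the wt-Cdx1 list. The wt-Cdx2 summit at this place, at 39291800, was 36 bp away and had 12 fragments (6.20 to 21.0) with a fold enrichment of 6.27. Neighbors of *LGALS4* on this side are *LGALS7B* and *LGALS7*, galectins of the same family.

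The other shared site of the locus lay 18765 bp upstream of the TSS, at 39322765 with wt-Cdx1 and 39322780 with wt-Cdx2. Its pileup was 20 fragments with wt-Cdx1, above 96.6% of the list, and 11 with wt-Cdx2. A further wt-Cdx1 summit with 15 fragments was called nearby, at 39323407. The neighbor of *LGALS4* on this side is *ECH1*, a gene of fatty acid oxidation, so that these peaks can belong to *ECH1* as well as to *LGALS4*. The local background at the wt-Cdx1 peaks of this window was 1.66 to 3.09 times the genome-wide value, higher than the 1.45 to 1.57 times at the wt-Cdx2 peaks. The part of this background in the pileups was not tested.

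Inside *LGALS4*, pileups were 7 to 10 fragments, below those of the shared sites of the locus. The medians of the whole lists were 9 fragments with wt-Cdx1 and 8 with wt-Cdx2. By pileup, the highest of these peaks, with 10 fragments, was a wt-Cdx1 peak 8597 bp downstream of the TSS. Its local background was 3.09 times the genome-wide value, and its fold enrichment of 3.18 was the lowest of all members. The summit nearest to the TSS was 1631 bp downstream with wt-Cdx2, at 39302369 with 9 fragments, and 3560 bp downstream with wt-Cdx1, also with 9 fragments. Farther in, a wt-Cdx1 peak and a wt-Cdx2 peak of 7 fragments each overlapped, but their summits were 162 bp apart and were not counted as shared.

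The promoter of *LGALS4* is shown beside that of *KRT20*, as another promoter of these genes without a called summit. It covers the 250 bases in front of the start, chr19:38812946-38813195 of GRCh38.p14 on the minus strand, from RefSeq.
LGALS4: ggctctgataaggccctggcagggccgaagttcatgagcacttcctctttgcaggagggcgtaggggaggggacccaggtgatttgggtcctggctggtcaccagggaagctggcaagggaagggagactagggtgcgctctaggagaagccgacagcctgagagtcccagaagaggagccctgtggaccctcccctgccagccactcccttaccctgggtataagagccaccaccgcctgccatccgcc
It held 0 matches to TTTAT or ATAAA, and therefore has no capitals, which says only that these letters are not in this stretch. The promoters also differed in base composition, with 63.2% G or C at *LGALS4* and 41.2% at *KRT20*, against a median of 58.0% over all promoters of this length. RefSeq promoters were matched for 2 of the 4 genes, *KRT20* and *LGALS4*.

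*GUCY2C* encodes guanylate cyclase C, the receptor of the hormones guanylin and uroguanylin, which raises cyclic GMP and thereby salt and fluid secretion. Its window, the longest at 125 kb, held 9 wt-Cdx1 summits with pileups of 8 to 12 fragments and 13 wt-Cdx2 summits with pileups of 6 to 30. Here the highest pileups were those of wt-Cdx2, and they lay outside the gene as placed here. Inside the gene, pileups were 8 to 10 fragments with wt-Cdx1 and 6 to 10 with wt-Cdx2.

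The wt-Cdx2 peak with 30 fragments (20.2 to 42.8) spanned positions 14754693 to 14754892, with its summit at 14754795. It lay 95205 bp from the TSS, about 10 kb past the 3′ end of the gene, on the side where *PLBD1* is the next gene in RefSeq. Both its fold enrichment of 12.0 and its −log10 q of 24.1 were the highest at these loci, and it stood above 99.4% of the wt-Cdx2 list. A wt-Cdx2 peak with 13 fragments was called next to it, at 14754157. The wt-Cdx1 summit at the shared place was only 8 bp away, at 14754803, with 11 fragments (5.49 to 19.7) and a fold enrichment of 4.60.

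On the promoter side of *GUCY2C*, both libraries had a summit about 4 kb upstream of the TSS, 31 bp apart. The wt-Cdx2 summit, at 14854009, had 15 fragments (8.40 to 24.7) and stood above 94.2% of its list. The wt-Cdx1 summit, at 14853978, had 8 fragments (3.45 to 15.8) and stood above 16.3% of its list, with 68.1% of the list higher. The nearest wt-Cdx1 summit was another one, 1762 bp upstream at 14851762, also with 8 fragments. wt-Cdx2 had no summit nearer to the TSS than the shared one, 4009 bp away.

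In the body of *GUCY2C*, none of the 3 wt-Cdx1 and 7 wt-Cdx2 summits was shared. Over the whole lists, 29.2% of wt-Cdx1 peaks and 26.3% of wt-Cdx2 peaks were shared, so that most peaks had no shared partner. The longest stretch of these loci without a wt-Cdx1 summit, 49.1 kb between 14790346 and 14839489, held 6 wt-Cdx2 summits with pileups of 6 to 10 fragments, where the density of the whole list would give 3.98. Conversely, the longest stretch without a wt-Cdx2 summit, 30.9 kb at *VIL1*, held 3 wt-Cdx1 summits with pileups of 8 to 11, where the list would give 2.25. Both stretches were chosen by their lack of summits, and the counts are given as a description. The highest of the 6 wt-Cdx2 summits, at 14811356 and 38644 bp downstream of the TSS, had 10 fragments over a local background equal to the genome-wide value and a −log10 q of 6.51. At the genome-wide background, the lowest pileup called anywhere was 5 fragments with wt-Cdx1 and 4 with wt-Cdx2. The wt-Cdx2 library had fewer kept tags (83.8% of those of wt-Cdx1). Its genome-wide background was also lower, 0.694 fragments against 0.798 with wt-Cdx1. At the end of this stretch, a wt-Cdx1 peak and a wt-Cdx2 peak overlapped with summits 150 bp apart, at pileups of 10 and 7.

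Peak counts at these loci were next compared with those of the whole lists. Over the 4 windows together (299 kb), there were 8.70 wt-Cdx1 summits per 100 kb (5.68 to 12.7) and 9.03 wt-Cdx2 summits (5.95 to 13.1). The whole lists had 7.29 and 8.10 peaks per 100 kb of the effective genome, within these intervals. For each gene and library taken alone, the interval also included the value of the list. *KRT20* had the highest density with wt-Cdx2, 14.0 per 100 kb (5.63 to 28.8), and *LGALS4* the highest with wt-Cdx1, 11.5 per 100 kb (4.23 to 25.1). *VIL1* had the lowest with wt-Cdx2, 4.17 per 100 kb (0.859 to 12.2). When the genome was cut into windows of the same length as each gene's, the wt-Cdx1 count was reached or passed by 28.3% of windows for *KRT20*, 38.6% for *VIL1*, 18.2% for *LGALS4* and 48.2% for *GUCY2C*. For wt-Cdx2, it was reached or passed by 11.5%, 81.7%, 54.6% and 24.3% of windows, respectively. At least 1 summit was found in 88.3% to 94.6% of the windows of these lengths, so that the presence of a summit alone did not set these genes apart.

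**Figure D2:**
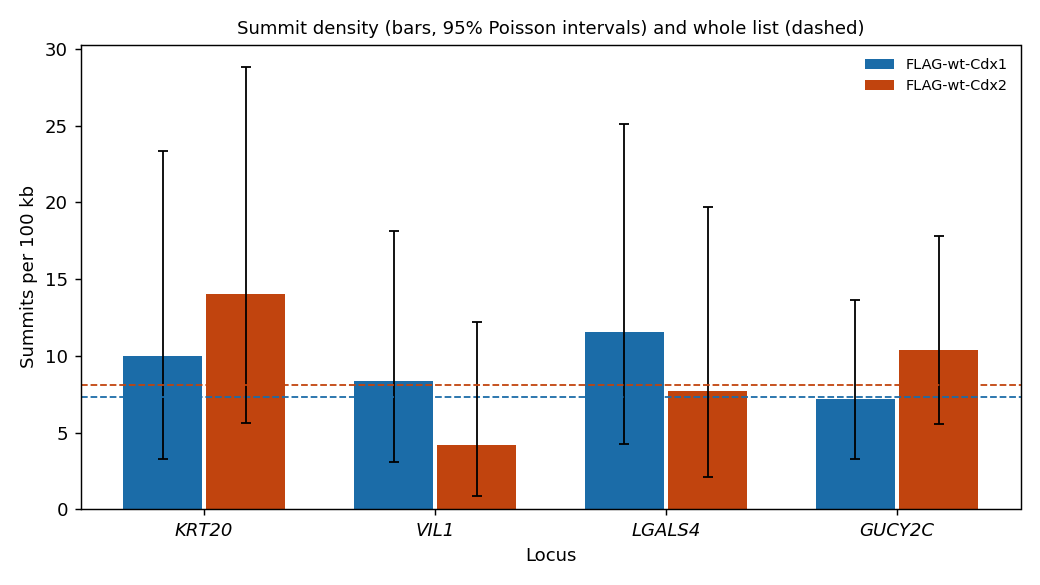
Summits per 100 kb in the window of each gene, as bars from 0 with 95% exact Poisson intervals, for wt-Cdx1 and wt-Cdx2. Dashed lines give the whole lists, 7.29 and 8.10 per 100 kb, and each interval includes the line of its library.

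The strength of the peaks was compared in the same way. A pileup above 90% of the list was found at 2 of 26 wt-Cdx1 members, both at *LGALS4*, against 8.67% of all wt-Cdx1 peaks, and at 2 of 27 wt-Cdx2 members, both at *GUCY2C*, against 7.62%. These numbers were near the background. A pileup above the median of the list was found at 10 of the wt-Cdx1 members, against 49.9% of all peaks, and at 13 of the wt-Cdx2 members, against 39.8%. The local background was above the genome-wide value at 20 wt-Cdx1 members, against 69.3% of all peaks, and at 21 wt-Cdx2 members, against 58.1%. With a −log10 q of at least 5, 6 wt-Cdx1 members remained, or 23.1% (95% exact binomial interval, 8.97 to 43.6), below the 52.2% of the whole wt-Cdx1 list. For wt-Cdx2, 10 members remained, or 37.0% (19.4 to 57.6), against 29.0% of the list. *KRT20* had 0 such peaks with wt-Cdx1 and 1 with wt-Cdx2, and *GUCY2C* had 1 and 5.

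**Figure D3:**
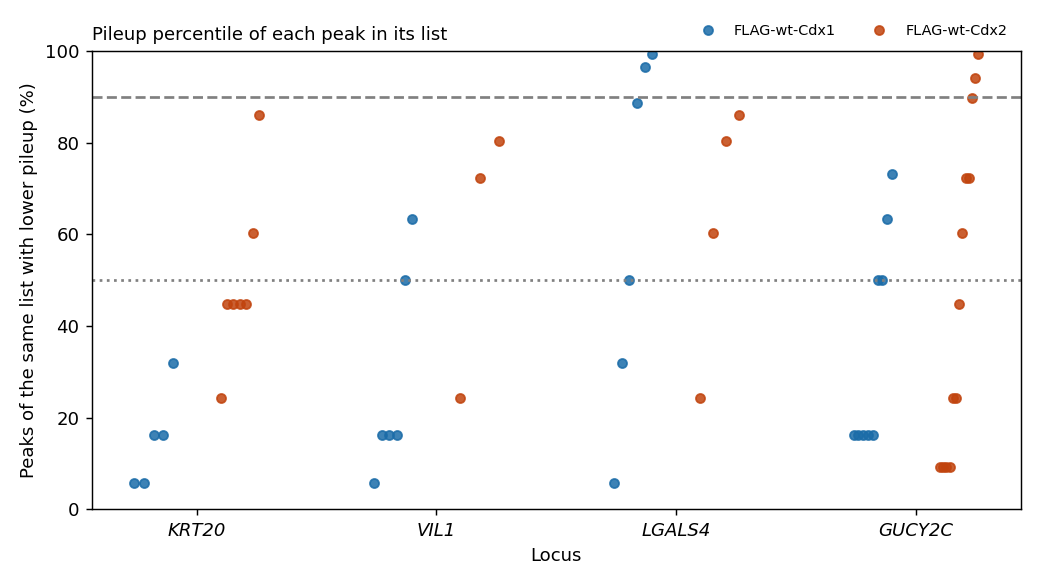
Percentage of peaks in the same list whose pileup was lower, for each peak in the windows of *KRT20*, *VIL1*, *LGALS4* and *GUCY2C*. Each point is a wt-Cdx1 or wt-Cdx2 peak, the dotted line marks 50% and the dashed line 90%, and 2 points per library lie above the dashed line, at *LGALS4* for wt-Cdx1 and at *GUCY2C* for wt-Cdx2.

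By the highest wt-Cdx1 pileup, the genes followed in the order *LGALS4* (33 fragments), *GUCY2C* (12), *VIL1* (11) and *KRT20* (9). The interval of *LGALS4* lay above those of the other genes, which overlapped each other. By the highest wt-Cdx2 pileup, *GUCY2C* (30) came before *KRT20* and *LGALS4* (12 each) and *VIL1* (11). The intervals of the last 3 genes overlapped, and that of *GUCY2C* overlapped those of *KRT20* and *LGALS4* slightly and not that of *VIL1*. The order below the first gene changed when the same peaks were ranked by fold enrichment. With wt-Cdx1, *LGALS4* stood above 98.5% of the list, *VIL1* above 80.7%, *KRT20* above 44.0% and *GUCY2C*, now last, above 32.3%. This last place holds only for the peaks of highest pileup. Another wt-Cdx1 peak of *GUCY2C*, at 14839489, had a fold enrichment of 5.78, above the 5.08 of the *KRT20* peak. With wt-Cdx2, *GUCY2C* was followed by *LGALS4* (84.4%), *VIL1* (71.4%) and *KRT20* (55.6%). The percentages of *VIL1* and *KRT20* again hold only for the peaks of highest pileup. Another wt-Cdx2 peak had a higher fold enrichment at each gene. It was 5.97 at 219318023 of *VIL1*, against 5.40, and 5.77 at 39020860 of *KRT20*, against 4.89.

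Of the members, 5 wt-Cdx1 and 5 wt-Cdx2 summits were shared, 2 pairs at *LGALS4*, 2 at *GUCY2C*, 1 at *KRT20* and 0 at *VIL1*. They made up 19.2% of the wt-Cdx1 members (6.55 to 39.4), against 29.2% of all wt-Cdx1 peaks, and 18.5% of the wt-Cdx2 members (6.30 to 38.1), against 26.3%. Both background shares were within these intervals. Counting any overlap of the peaks instead, 7 members of each library had a partner, against 34.2% of all wt-Cdx1 peaks and 30.8% of all wt-Cdx2 peaks. A peak without a partner was not called in the other library, which does not show that the other factor was absent there.

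The libraries were then compared at the shared sites, after scaling the pileups to kept tags. At the site past the 3′ end of *GUCY2C*, wt-Cdx2 was 3.26 times as high as wt-Cdx1 (95% exact conditional interval, 1.59 to 7.20). At the 3′ side of *LGALS4*, wt-Cdx1 was the higher one, and the ratio of wt-Cdx2 to wt-Cdx1 was 0.434 (0.204 to 0.863). The intervals of these sites did not overlap. Over all 57545 shared pairs of the lists, the median ratio was 1.05, 0.264% of pairs had a ratio at least as high as at *GUCY2C*, and 1.52% had a ratio at most as low as at *LGALS4*. An interval entirely above 1 was found at 2.77% of all pairs, and one entirely below 1 at 1.20%. Both sites hold the highest peaks of these loci, and the pairs of the lists were not matched for pileup. These shares therefore do not show how rare such ratios are among pairs of similar pileup.

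At the remaining shared sites, the interval of the ratio included 1. The ratio was 2.24 (0.891 to 6.10) upstream of *GUCY2C*, 1.34 (0.460 to 4.00) at *KRT20*, and 0.657 (0.284 to 1.44) upstream of *LGALS4*. Thus, both sites of *GUCY2C* had ratios above 1 and both sites of *LGALS4* had ratios below 1, and the interval excluded 1 at the 3′ site of each gene. These intervals cover the counting of fragments in 1 library per factor, and are no test of the factors. At the sites of both genes, the local background relative to the genome-wide value was higher in the library with the higher pileup. The lists were called without a control library. This background therefore came from the same library as the pileup and is not independent of it. It was 2.92 times the genome-wide value with wt-Cdx1 and 1.55 times with wt-Cdx2 at the 3′ site of *LGALS4*, and 1.85 and 1.49 times at the upstream site. At *GUCY2C*, it was 2.02 times with wt-Cdx1 and 2.29 times with wt-Cdx2 at the 3′ site, and 1.31 and 2.41 times at the upstream site. In fragments, the background at this 3′ site was 1.61 with wt-Cdx1 and 1.59 with wt-Cdx2. The ratios of the fold enrichments, which are not scaled to kept tags, were closer to 1 than those of the scaled pileups. They were 2.60 at the 3′ site of *GUCY2C* and 1.36 at its upstream site, and 0.614 and 0.697, respectively, at *LGALS4*. At the 3′ site of *GUCY2C*, the ratio of the pileups without scaling was 2.73. The part of the local background in these differences was not tested.

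**Figure D4:**
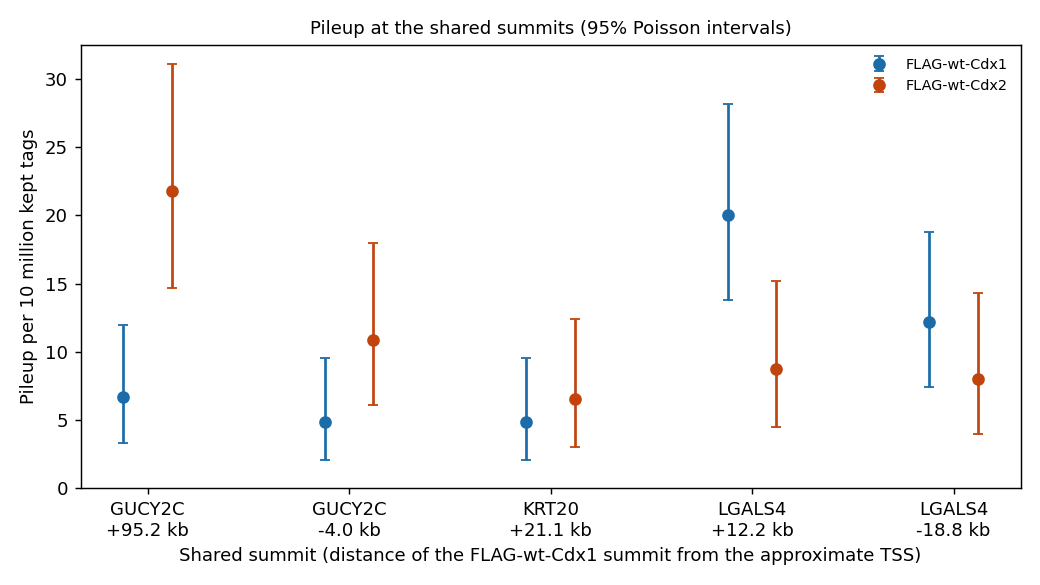
Pileup at the 5 shared sites, scaled to an equal number of kept tags, with wt-Cdx1 and wt-Cdx2 side by side as points with 95% exact Poisson intervals. Sites are named by gene and by the distance of the wt-Cdx1 summit from the approximate TSS, and wt-Cdx2 is higher at both *GUCY2C* sites and lower at both *LGALS4* sites.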

How the data were processed

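The deposited MACS peak lists, 1 per library of FLAG-wt-Cdx1 or FLAG-wt-Cdx2, were the starting point. The submitters' processing notes name GRCh37, bcl2fastq 1.8.3, cutadapt 1.1, Trimmomatic 0.32 and MACS2 2.0.10. Per the file headers, peaks were called per library with MACS 2.0.10.20131216 without a control library at a q-value cutoff of 0.05, and 16452141 and 13781541 tags were kept. The deposited columns hold the pileup signal at the summit, the fold enrichment (a ratio), and p-values and q-values as −log10. A second deposited version of each list, without pileup, was not used.

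The local background was recovered from pileup and fold enrichment. Summits within 100 bp of each other, each the nearest to the other, were called shared pairs. Tiled windows ran over the autosomes and chromosome X. Percentiles are shares of the same list with a lower pileup, so that peaks of equal pileup are not counted. Intervals are exact Poisson, exact binomial, or exact conditional for ratios. The sharing and pairing of summits were tested on shifted copies of called wt-Cdx1 summits, and the ratio and its interval on simulated counts. The other steps were not tested in this way. Calculations used scipy 1.17.1, pandas 2.3.3 and numpy 2.4.6 under Python 3.11.15, and plots matplotlib 3.10.9.

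The genes, windows and comparisons were chosen with earlier results of these data known. In each window, the peak of highest pileup, the peak nearest to the TSS and each shared pair were named, and further peaks were named after their values were seen. No GRCh37 sequence or annotation was used here, so that motifs at summits and the planned lists of related genes are not reported.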

Additional observations from a re-analysis of the deposited data

How the results depend on the processing

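No paired analysis was possible because each factor had a single library, and for the same reason no replicate could be left out. The placement of the TSS 1000 bp to either side was chosen after the data were seen. The counts fell with stricter thresholds, to 6 wt-Cdx1 and 10 wt-Cdx2 peaks with a −log10 q of at least 5, and to 10 and 11, respectively, when a fold enrichment of at least 5 was required. With windows shortened by 10 kb at each edge, 18 wt-Cdx1 and 17 wt-Cdx2 peaks remained. The shared pairs fell from 5 to 2 when both lists were limited to a −log10 q of at least 5, both at *LGALS4*. These counts fell because fewer peaks or shorter windows were counted.

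The percentile of the highest wt-Cdx1 peak by fold enrichment, by −log10 q and by pileup within the chromosome was 44.0, 41.3 and 35.0 at *KRT20*, 80.7, 77.1 and 60.0 at *VIL1*, and 32.3, 46.4 and 75.4 at *GUCY2C*. At *LGALS4* it was 98.5 by fold enrichment and 99.0 within the chromosome. For wt-Cdx2, these values were 55.6, 69.5 and 85.1 at *KRT20*, 71.4, 73.2 and 76.0 at *VIL1*, 84.4, 86.5 and 83.6 at *LGALS4*, and 99.39, 99.49 and 99.34 at *GUCY2C*. The cause was not tested.

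With a −log10 q of at least 5, the nearest summit moved to 12236 bp (wt-Cdx1) and 12200 bp (wt-Cdx2) downstream of the TSS at *LGALS4*, to 21140 bp at *KRT20* (wt-Cdx2), and from the upstream side to 10511 bp downstream at *GUCY2C* (wt-Cdx1), since the nearer peaks were left out. *KRT20* then had no wt-Cdx1 peak and gave no distance. The wt-Cdx2 summit at *VIL1* lay 147 bp or 647 bp downstream of the TSS for a TSS 500 bp or 1000 bp further upstream, and at -853 bp or -1353 bp for one as much further downstream, the last being outside 1 kb. A TSS 1000 bp further upstream brought the nearest wt-Cdx1 summit of *GUCY2C* to -762 bp, and one 1000 bp further downstream brought the nearest wt-Cdx2 summit of *LGALS4* to 631 bp. The ratios at shared sites stayed within their intervals without scaling and with fold enrichment.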
